A study of Mus musculus with 13 samples.

Results

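The Toll-like receptors are membrane receptors of innate immunity, and 10 of their genes were followed here in mouse microglia. They were taken by gene symbol (Tlr1 to Tlr9 and Tlr13), and all 10 were present among the 19737 genes of the expression table, which held 13 ribosomal RNA-depleted RNA-seq libraries. Tlr11 and Tlr12, the remaining receptors of the mouse family, were in the table as well but were not members of the set: Tlr11 stayed between 0.0363 and 0.214 FPKM (fragments per kilobase of exon, scaled to sequencing depth), and Tlr12 lay between 6.42 and 12.6 FPKM.

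The libraries fell into 4 groups. Wild type mice given the vector AAV PHP.eB-EGFP gave 3 libraries, and 5xFAD mice given the same vector gave 2 libraries. A further 4 libraries came from 5xFAD mice given AAV PHP.eB-circPOLR2A, and 4 came from mice labelled 5xFAD; PKR KO, for which no vector is named. 5xFAD is a transgenic amyloid model that carries mutant human transgenes under the neuronal Thy1 promoter, PHP.eB is an adeno-associated virus capsid that crosses the blood-brain barrier of mice, and EGFP is an inert fluorescent protein. circPOLR2A is a circular RNA with double-stranded stretches, which the series title describes as delivered to neurons, and PKR, encoded by Eif2ak2, is a cytosolic kinase that double-stranded RNA activates. The labels number the circRNA construct differently in each of its libraries, whereas the design text names 1 construct for all of them. Age, sex, the way microglia were isolated and whether replicates are separate animals are not given in the sources used here, so the p-values measure only the spread between these libraries. The comparison of PKR KO with EGFP therefore combines a genotype with a possible difference in vector. The PKR KO libraries were also all deeper than every library of the other groups, as given below. Genotype, vector and any difference in how these libraries were made or sequenced cannot be told apart.

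Toll-like receptors are sorted by where they meet their ligands. At the cell surface, Tlr2 pairs with Tlr1 or Tlr6 to bind bacterial lipoproteins, Tlr4 with Ly96 and Cd14 binds lipopolysaccharide, and Tlr5 binds flagellin. In endosomes, Tlr3 binds double-stranded RNA, Tlr7 and Tlr8 bind single-stranded RNA and its breakdown products, Tlr13 binds bacterial ribosomal RNA, and Tlr9 binds DNA with unmethylated CpG sites. Most signal through the adaptor Myd88, Tlr3 through Ticam1 and Tlr4 through both, and in microglia, the resident macrophages of the brain, this leads to NF-kappaB activity and cytokine transcription.

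In short, Tlr2 RNA was 2.87 to 4.33 times as high in the 5xFAD groups as in wild type, and Tlr3 was lowest in the PKR KO libraries. Tlr1 was higher by less, did not pass the test in 5xFAD EGFP and passed in circRNA in some fits only. Tlr5 was lower, with a call in 5xFAD EGFP next to the threshold that many alternative fits lost. The scarce Tlr8 was lower as well, at a level below that set for testing. The abundant endosomal receptors Tlr7 and Tlr13 did not pass the test in any comparison, and Tlr9 passed against wild type in some alternative fits but not in the model of the 4 group means over all libraries.

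Each member is a protein-coding gene of GRCm38. Among the surface receptors, Tlr2 lies at chr3:83836272-83841767 on the minus strand, and Tlr1 (chr5:64924679-64933563) and Tlr6 (chr5:64952031-64960097) are neighbours on the minus strand of chromosome 5. Tlr4 lies at chr4:66827584-66930284 and Tlr5 at chr1:182954788-182976044, both on the plus strand. The single-stranded RNA receptors Tlr7 (chrX:167304929-167330558) and Tlr8 (chrX:167242696-167264329) are neighbours on the minus strand of the X chromosome, where Tlr13 also lies (chrX:106143204-106160493, plus strand). Tlr3 lies at chr8:45395665-45411080 on the minus strand and Tlr9 at chr9:106222598-106226883 on the plus strand. An antisense gene, Gm45542, covers 381 bases (7.32%) of the exons of Tlr3. The library kit keeps strand, but the strand setting of the counting is not given in the sources used here, so reads of Gm45542 within those bases cannot be told apart from Tlr3. Tlr1 and Tlr6 are close paralogs, and how reads that map to both were treated is likewise not given, so the split between them is uncertain.

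Promoter sequence from RefSeq (GRCm38.p6) is shown for the members whose 5xFAD libraries all lay on 1 side of every wild type library, Tlr2 and Tlr1 above and Tlr5 and Tlr8 below. Lack of overlap with wild type was common among all genes tested, as counted below for each 5xFAD group. The stretches are the parts of each RefSeq window that lie before the annotated gene, with motif matches in capitals. For Tlr2 it is chr3:83841768-83841858 (minus strand), for Tlr1 chr5:64933564-64933808 (minus strand), for Tlr5 chr1:182954538-182954787 (plus strand) and for Tlr8 chrX:167264330-167264579 (minus strand).
Tlr2: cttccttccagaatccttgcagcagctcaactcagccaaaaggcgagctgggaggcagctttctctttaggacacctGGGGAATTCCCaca
Tlr1: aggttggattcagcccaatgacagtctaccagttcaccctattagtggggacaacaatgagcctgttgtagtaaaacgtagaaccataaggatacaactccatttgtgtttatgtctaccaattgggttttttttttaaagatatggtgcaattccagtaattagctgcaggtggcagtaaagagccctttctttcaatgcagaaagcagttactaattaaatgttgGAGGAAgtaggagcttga
Tlr5: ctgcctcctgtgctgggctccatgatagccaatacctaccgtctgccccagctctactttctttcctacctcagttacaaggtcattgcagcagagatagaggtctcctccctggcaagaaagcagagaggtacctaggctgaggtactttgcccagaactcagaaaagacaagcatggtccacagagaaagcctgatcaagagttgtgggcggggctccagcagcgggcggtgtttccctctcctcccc
Tlr8: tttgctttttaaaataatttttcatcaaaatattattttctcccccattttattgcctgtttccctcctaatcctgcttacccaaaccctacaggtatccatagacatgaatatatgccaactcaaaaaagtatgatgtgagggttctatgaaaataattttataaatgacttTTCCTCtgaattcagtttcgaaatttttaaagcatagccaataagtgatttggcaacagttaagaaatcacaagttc
The capitals in Tlr2 mark overlapping matches to the NF-kappaB motif, and the capitals in Tlr1 and Tlr8 mark the PU.1 core GAGGAA, which in Tlr8 is read on the other strand. Tlr5 held no match to any of the 4 motifs searched. The other motifs were the interferon response core (GAAA, any 2 bases, GAAA) and the AP-1 site TGANTCA, all on both strands. RefSeq windows of 250 bases before to 50 after the start were found for 8 of the 10 members, 10 windows in all, since Tlr1 and Tlr6 had 2 each. The NF-kappaB motif was present in 2 of these 10 windows (Tlr2 and Tlr3) against 8.5% of 32851 windows of the same length, and the PU.1 core in 4 of 10 (Tlr1, Tlr8, Tlr9 and Tlr13) against 28.3%. The interferon response core was present in 1 window, of Tlr6 (3.4% of all windows), and the AP-1 site in 1, of Tlr9 (7.8%). These matches describe letters in a window and not binding.

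The 13 libraries held 45.2 to 70.0 M counted fragments, as recovered from the steps between low FPKM values. The PKR KO libraries held 57.7 to 70.0 M and the libraries of the other groups 45.2 to 54.9 M, without overlap. Microglial markers were high throughout: the 9 listed genes, among them P2ry12 and Tmem119, summed to 2735 to 4678 FPKM per library. Wild type replicate 3 stood apart, with the lowest microglial sum (2735 against 4275 and 4363 FPKM in wild type replicates 1 and 2) and the highest oligodendrocyte sum (1580 against 392 and 352 FPKM). All 10 members were lower in that library than in wild type replicates 1 and 2, at 0.565 to 0.709 of their mean. For the 9 members tested, each difference from wild type is therefore also given without it. The same library had the highest sums of neuron, astrocyte, oligodendrocyte, endothelial and mural markers, which form the covariate of an alternative fit. Fits with that covariate, or with libraries weighted by arrayWeights, are therefore not read as separate from leaving it out. Eif2ak2 lay between 3.31 and 4.61 FPKM in the PKR KO libraries, below the 6.49 to 6.59 FPKM of 5xFAD EGFP and the 7.37 to 8.11 FPKM of circRNA but overlapping wild type (4.14 to 5.23 FPKM). The deleted part of the gene is not named, so what this whole-gene value says about the deletion was not tested. Scaling mattered as well: giving every library the same FPKM sum moved the median log2 difference from wild type of all tested genes to -0.17 for 5xFAD EGFP, -0.20 for circRNA and -0.24 for PKR KO.

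In wild type microglia the endosomal receptors Tlr7, Tlr9 and Tlr13 were the most abundant members, whereas endosomal Tlr3 and Tlr8 ranked below Tlr2. Tlr7 had the highest mean, 34.4 ± 10.5 FPKM (SD, n = 3), followed by Tlr9 at 30.4 ± 8.35, Tlr13 at 25.9 ± 5.84 and Tlr2 at 14.6 ± 3.27. The ranges of the first 3 overlapped between libraries, but within each of the 3 wild type libraries the order was Tlr7, Tlr9, Tlr13 and then Tlr2. Tlr3 (9.40 ± 1.86), Tlr4 (9.23 ± 2.27) and Tlr1 (6.36 ± 1.34) followed with overlapping ranges. Tlr6 (5.39 ± 1.23) overlapped Tlr1 but not Tlr3 or Tlr4, and it was below all 3 of them in 13 of 13 libraries. Tlr5 (3.51 ± 0.689) and Tlr8 (1.07 ± 0.205) were the lowest.

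In all 10 5xFAD libraries the order began with Tlr2. Tlr2 ranked above Tlr7, Tlr9 and Tlr13 in 10 of 13 libraries and below all of them in the 3 wild type libraries. Tlr7 held places 1 to 2 and Tlr13 places 3 to 4 over the libraries. Tlr13 was above Tlr9 in 9 of 13 libraries. Tlr1, Tlr3 and Tlr4 exchanged places 5 to 7, with Tlr1 above each of the others in 10 of 13 libraries. Tlr6, Tlr5 and Tlr8 held places 8, 9 and 10 in every library. Over all 13 libraries the mean levels ran from 42.7 FPKM for Tlr2 to 0.559 FPKM for Tlr8.

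**Figure D1:**
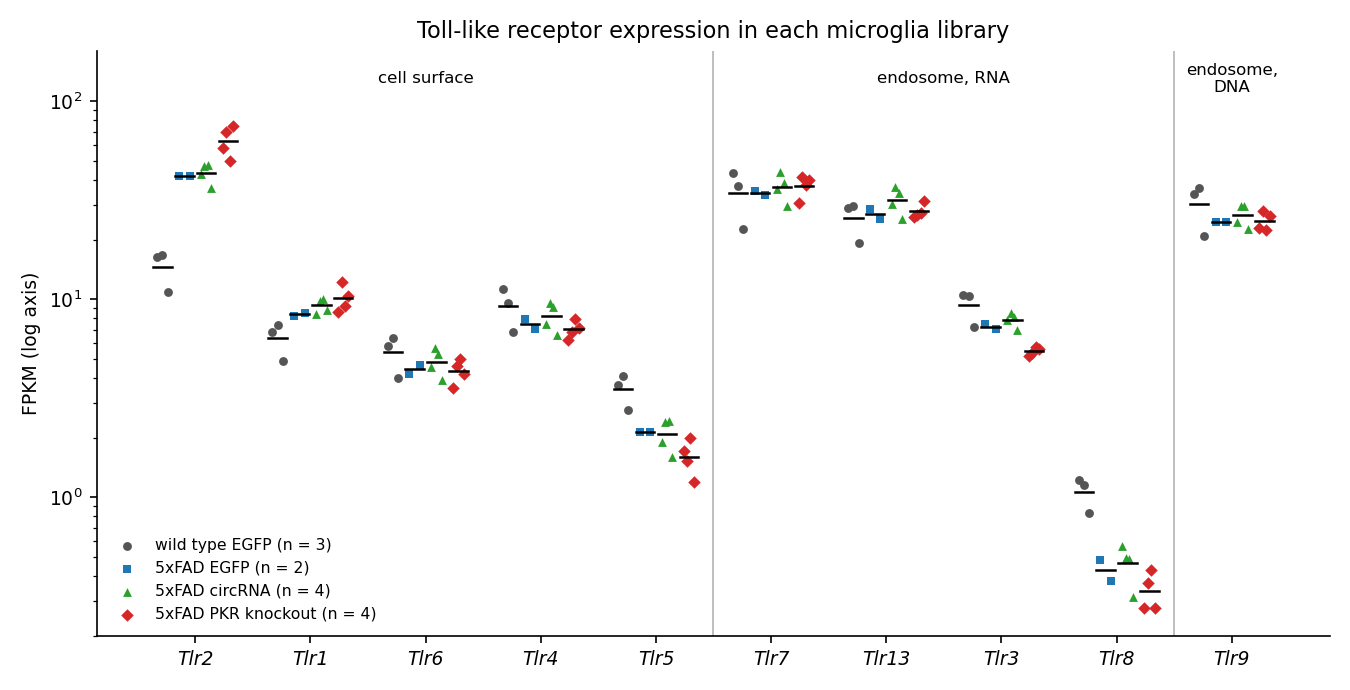
FPKM (log axis) of the 10 Toll-like receptors in each of the 13 libraries, by group, with surface receptors at the left and endosomal RNA and DNA receptors at the right; points are libraries and bars are group means. Tlr2 moves from between 10.9 and 16.8 FPKM in wild type to between 36.5 and 75.2 FPKM in the 5xFAD groups, whereas Tlr7, Tlr13 and Tlr9 overlap between wild type and every 5xFAD group.

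The first question is how each 5xFAD group compares with wild type. The 3 comparisons share the same 3 wild type libraries, so their results are given side by side and are not independent of each other. In 5xFAD EGFP, 2 of the 9 members tested passed limma's test at an adjusted p of 0.05, and 14% of all 10817 genes tested did. The count was 3 of 9 for circRNA, where 25.8% of all genes passed, and 4 of 9 for PKR KO, where 37% passed. In this fit the counts are near the background share, so the number called does not set the members apart from other genes. Without overlap with wild type, 2 members lay higher and 1 lower in 5xFAD EGFP, where 1789 and 2278 of all 10817 genes did. In circRNA the members' counts were 2 and 1, against 2184 and 865 of all genes. In PKR KO they were 2 and 2, against 2143 and 2283, so lack of overlap was common among all genes. The members' median log2 difference was -0.22, -0.12 and -0.25 in the 3 comparisons, and that of all genes was -0.03, 0.02 and -0.05. The libraries are bulk RNA, so a lower value from fewer cells of a type and one from less RNA per cell cannot be told apart. When wild type replicate 3 was left out, the counts were 4, 4 and 7 of 9, where 18.5%, 23.8% and 35.0% of all genes passed. The members' shares were then further above those of all genes, in a fit without the library in which all 10 members were lowest among wild type.

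Tlr2, the shared partner of the lipoprotein receptors, was measured at 16.3, 16.8 and 10.9 FPKM in the 3 wild type libraries. It stood at 41.9 and 42.0 FPKM in 5xFAD EGFP and at 42.9, 47.2, 47.9 and 36.5 FPKM in circRNA. The PKR KO libraries held 58.0, 70.1, 50.1 and 75.2 FPKM. No 5xFAD library overlapped wild type, and the lowest PKR KO library was above the highest of the other 5xFAD libraries. Tlr2 rose in 5xFAD EGFP by 1.48 on the log2(FPKM + 1) scale (SE 0.20, limma adjusted p = 0.000455), and its mean FPKM was 2.87 times that of wild type. The rise was 1.53 in circRNA (SE 0.17, limma adjusted p = 3.66e-05, 2.98 times the mean) and 2.05 in PKR KO (SE 0.17, limma adjusted p = 2.48e-06, 4.33 times the mean). Leaving out wild type replicate 3 gave 1.29, 1.34 and 1.86 (limma adjusted p = 0.000531, 6.90e-05 and 3.77e-06). Depth was not limiting, since Tlr2 rested on 1653 to 14798 fragments per library.

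Tlr1, which binds lipoproteins together with Tlr2, lay at 6.80, 7.43 and 4.85 FPKM in wild type and at 8.24 and 8.57 FPKM in 5xFAD EGFP. It reached 8.44, 9.85, 10.1 and 8.85 FPKM in circRNA and 8.60, 12.2, 9.20 and 10.4 FPKM in PKR KO. Every 5xFAD library was above every wild type library, by a smaller step than for Tlr2. Tlr1 rose in circRNA by 0.50 (SE 0.13, limma adjusted p = 0.0148, 1.46 times the mean) and in PKR KO by 0.60 (SE 0.13, limma adjusted p = 0.00411, 1.59 times the mean). In 5xFAD EGFP its difference of 0.37 did not pass (limma adjusted p = 0.153), nor did the 0.21 found without wild type replicate 3 (limma adjusted p = 0.290). The circRNA call was lost without wild type replicate 3 (0.34, limma adjusted p = 0.0511), with libraries weighted by their quality by arrayWeights (0.31, limma adjusted p = 0.10) and when libraries were scaled to the same FPKM sum (0.24, limma adjusted p = 0.144). In PKR KO without that replicate the rise was 0.44 (limma adjusted p = 0.0125).

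Tlr6, the other partner of Tlr2, did not pass in any comparison in the model of the 4 group means over all libraries. Its means were 5.39 ± 1.23 FPKM in wild type (SD, n = 3), 4.43 ± 0.348 in 5xFAD EGFP (n = 2), 4.85 ± 0.776 in circRNA (n = 4) and 4.34 ± 0.602 in PKR KO (n = 4). Wild type replicate 3, at 4.01 FPKM, lay within the 5xFAD range while the other wild type libraries lay at 5.81 and 6.36 FPKM. The log2 differences from wild type were -0.22, -0.12 and -0.25. Without that replicate they were -0.39, -0.29 and -0.41, and the one in PKR KO passed (limma adjusted p = 0.0892, 0.129 and 0.0257). The PKR KO difference also passed with arrayWeights, with equal FPKM sums and with a covariate of markers of other cells, and the 5xFAD EGFP difference with that covariate (limma adjusted p = 0.0427).

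Tlr4, the lipopolysaccharide receptor, did not pass in that model either. It had means of 9.23 ± 2.27 FPKM in wild type, 7.54 ± 0.640 in 5xFAD EGFP, 8.20 ± 1.39 in circRNA and 7.04 ± 0.692 in PKR KO, and the groups overlapped. Its differences of -0.24, -0.14 and -0.33 did not pass (limma adjusted p = 0.451, 0.551 and 0.109). They became -0.42, -0.32 and -0.51 once wild type replicate 3 was left out, and the one in PKR KO passed (limma adjusted p = 0.0765, 0.0999 and 0.0117). The PKR KO difference also passed with arrayWeights, the marker covariate and equal FPKM sums, and the circRNA difference with equal FPKM sums (-0.40, limma adjusted p = 0.0285).

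Tlr5, the flagellin receptor, was measured at 3.67, 4.10 and 2.76 FPKM in wild type. It stood at 2.13 and 2.14 FPKM in 5xFAD EGFP, at 1.91, 2.39, 2.43 and 1.61 FPKM in circRNA and at 1.71, 1.52, 1.98 and 1.19 FPKM in PKR KO. Wild type replicate 3 was the lowest wild type library and was still above every 5xFAD library. Tlr5 fell by 0.55 on the log2 scale in circRNA (SE 0.13, limma adjusted p = 0.00920, 0.593 of the wild type mean) and fell by 0.79 in PKR KO (SE 0.13, limma adjusted p = 0.000683, 0.457 of the mean). In 5xFAD EGFP it fell by 0.51 (SE 0.16, limma adjusted p = 0.0479, 0.608 of the mean), a call next to the threshold. That call was lost in 8 of the 13 fits that left out a library and in 4 of the 8 other alternatives, with adjusted p up to 0.214. It was lost without either 5xFAD EGFP library, without wild type replicate 1 or 2, without circRNA replicate 1 or 2, and without PKR KO replicate 1 or 2. Where 1 of the 2 EGFP libraries is left out, the other is assumed to vary like the libraries of the remaining groups, and the difference itself was -0.51 or -0.52. All 3 differences passed when wild type replicate 3 was left out, at -0.64, -0.67 and -0.92 (limma adjusted p = 0.0134, 0.00284 and 0.000271).

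Among the endosomal RNA receptors, Tlr7 and Tlr13 showed levels in 5xFAD that overlapped wild type. Tlr7 had means of 34.4 ± 10.5 FPKM in wild type (SD, n = 3), 34.4 ± 1.23 in 5xFAD EGFP (n = 2), 37.0 ± 5.82 in circRNA (n = 4) and 37.4 ± 4.76 in PKR KO (n = 4). The wild type libraries alone spanned 22.8 to 43.2 FPKM. The Tlr7 differences from wild type were 0.05, 0.14 and 0.16 (limma adjusted p = 0.929, 0.660 and 0.552), with a 95% interval of -0.46 to 0.55 in 5xFAD EGFP. Their sign turned when wild type replicate 3 was left out, at -0.22, -0.13 and -0.11, and none was called either way. Tlr13, the receptor for bacterial ribosomal RNA, had means of 25.9 ± 5.84, 27.0 ± 2.17, 31.8 ± 4.97 and 27.8 ± 2.38 FPKM in the same order. Its differences were 0.08, 0.30 and 0.12 (limma adjusted p = 0.822, 0.185 and 0.557). They became -0.11, 0.10 and -0.07 once wild type replicate 3 was left out, so that 2 of the 3 signs turned and none passed (limma adjusted p = 0.642, 0.601 and 0.703).

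Tlr3, the receptor for double-stranded RNA, was measured at 10.6, 10.4 and 7.25 FPKM in wild type and at 7.46 and 7.07 FPKM in 5xFAD EGFP. It stood at 7.88, 8.52, 8.16 and 6.97 FPKM in circRNA and at 5.19, 5.35, 5.73 and 5.64 FPKM in PKR KO. The PKR KO libraries formed the lowest group and overlapped no other library, whereas 5xFAD EGFP and circRNA overlapped wild type through wild type replicate 3. Tlr3 fell by 0.67 in PKR KO (SE 0.11, limma adjusted p = 0.000567, 0.583 of the wild type mean). In 5xFAD EGFP and circRNA the differences of -0.31 and -0.21 did not pass (limma adjusted p = 0.139 and 0.177). Leaving out wild type replicate 3 made them -0.47 and -0.37, and both passed (limma adjusted p = 0.00397 and 0.00411), and the PKR KO difference was -0.82 (limma adjusted p = 1.06e-05). The differences in 5xFAD EGFP and circRNA also passed with equal FPKM sums, with arrayWeights and with the marker covariate (limma adjusted p = 0.00295 to 0.0150).

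Tlr8 was the scarcest member, and its mean over all libraries was below the filter of 1 FPKM. It lay at 1.22, 1.15 and 0.834 FPKM in wild type, at 0.480 and 0.376 FPKM in 5xFAD EGFP, and at 0.569, 0.496, 0.488 and 0.313 FPKM in circRNA. The PKR KO libraries held 0.275, 0.371, 0.427 and 0.275 FPKM. Every 5xFAD library was below every wild type library. These values rested on 57 to 206 fragments per library, with a counting error of 6.97 to 13.25%. In a fit without the filter Tlr8 fell in all 3 comparisons, to 0.401 of the wild type mean in 5xFAD EGFP (limma adjusted p = 0.00653), 0.437 in circRNA (limma adjusted p = 0.00156) and 0.316 in PKR KO (limma adjusted p = 0.000263). Because the level is near the pseudocount of 1, the log2 differences of -0.53, -0.49 and -0.63 understate the change, and with a pseudocount of 0.1 they were -1.14, -1.05 and -1.42.

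Tlr9, the DNA receptor, lay at 33.9, 36.5 and 20.9 FPKM in wild type, at 24.5 and 24.4 FPKM in 5xFAD EGFP, and at 24.4, 29.5, 29.7 and 22.6 FPKM in circRNA. PKR KO libraries held 22.9, 27.9, 22.4 and 26.5 FPKM. Wild type replicates 1 and 2 were above every 5xFAD library, and wild type replicate 3 was below all of them. In the model of the 4 group means over all libraries, the differences of -0.27, -0.16 and -0.25 did not pass (limma adjusted p = 0.451, 0.543 and 0.273). When wild type replicate 3 was left out they were -0.51, -0.40 and -0.49, and all passed (limma adjusted p = 0.0300, 0.0346 and 0.0104). With all libraries kept, the 3 differences passed with arrayWeights (limma adjusted p = 0.0498, 0.0340 and 0.0236) and with the marker covariate (limma adjusted p = 0.0300, 0.0386 and 0.00256). These 2 fits are not separate from leaving out wild type replicate 3, as stated above. The differences of circRNA and PKR KO also passed with equal FPKM sums.

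**Figure D2:**
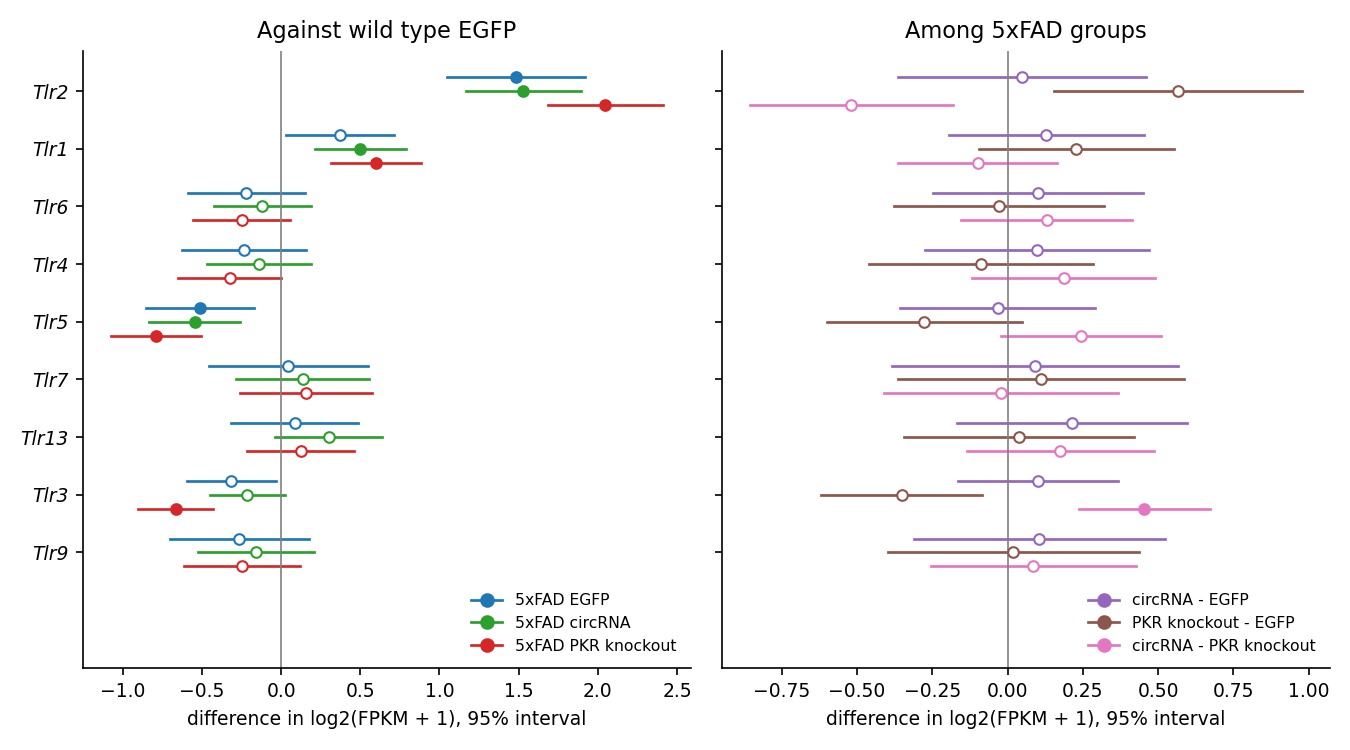
Difference in log2(FPKM + 1) of the 9 tested members against wild type EGFP (left) and among the 5xFAD groups (right), with 95% intervals from limma; filled points have an adjusted p under 0.05. Against wild type, Tlr2 stands at 1.48 to 2.05 and Tlr5 at -0.51 to -0.79, whereas among the 5xFAD groups the filled point is Tlr3 in circRNA against PKR KO, at 0.45.

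The second question is whether the circRNA changed receptor expression in 5xFAD microglia relative to the EGFP vector. None of the 9 members passed limma's test, 0 of 9 had an unadjusted p under 0.05, and 0% of all tested genes passed with adjustment (523 genes, 4.83%, at an unadjusted p under 0.05). Tlr2 differed by 0.05 on the log2 scale, with a 95% interval of -0.36 to 0.46 (limma adjusted p = 0.934). Tlr3 differed by 0.10 (interval -0.17 to 0.37) and Tlr13, the member with the largest difference, by 0.22 (interval -0.17 to 0.60, limma adjusted p = 0.743). For 8 of the 9 members the difference was positive, with a median of 0.10 where that of all genes was 0.08. Tlr8 also did not pass in the fit without the filter (limma adjusted p = 0.968). With 2 EGFP libraries the intervals leave room for differences of this size, so the groups were not shown to be alike.

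The third question is how PKR KO compares with EGFP in 5xFAD. No member passed with adjustment, where 0.0832% of all genes did (9 genes, all higher, and 0 in 9 of the 13 fits that left out a library), but 2 members had an unadjusted p under 0.05, as did 13% of all genes. Tlr2 was 0.57 higher (interval 0.15 to 0.98, limma adjusted p = 0.247), at 1.51 times the EGFP mean. Tlr3 differed by -0.35 (interval -0.62 to -0.09, limma adjusted p = 0.256), at 0.754 of the EGFP mean. For 4 of 9 members the PKR KO and EGFP libraries did not overlap: Tlr1 and Tlr2 were higher, and Tlr3 and Tlr5 lower, in every PKR KO library. Of all genes, 34.8% did not overlap between these groups. Comparing these 2 groups alone called Tlr3 (limma adjusted p = 0.0267), and arrayWeights called Tlr2 and Tlr3 (limma adjusted p = 0.0342 and 0.0224).

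Between circRNA and PKR KO, the members whose libraries did not overlap were Tlr3, higher in circRNA, and Tlr2, lower. Of all 10817 genes, 1629 were higher and 480 lower without overlap, so this does not set the members apart. Tlr3 passed, as 1 of 9 members where 6.19% of all genes did. It was 0.45 higher in circRNA (SE 0.10, interval 0.24 to 0.67, limma adjusted p = 0.0240), at 1.44 times the PKR KO mean, and all 4 circRNA libraries were above all 4 PKR KO libraries. This call was lost in 6 of the 13 fits that left out a library, namely without circRNA replicate 1, 2 or 3 or PKR KO replicate 1, 2 or 3, with adjusted p up to 0.0772. It was also lost with median-ratio scaling (0.34, limma adjusted p = 0.0633). Tlr2 was lower in circRNA by -0.52 (interval -0.86 to -0.18, limma adjusted p = 0.0660), also without overlap, and passed with median-ratio scaling (-0.65, limma adjusted p = 0.0319), with equal FPKM sums (-0.57, limma adjusted p = 0.0403), with arrayWeights (-0.54, limma adjusted p = 0.00591) and when wild type replicate 3 was left out (limma adjusted p = 0.0245). Tlr7 did not differ detectably, at -0.02 (interval -0.41 to 0.37).

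Ratios between receptors within a library do not depend on how the library was scaled, and they are given as descriptions without a test. The ratio of Tlr2 to Tlr1 was 2.24 to 2.39 in wild type, 4.90 to 5.08 in 5xFAD EGFP, 4.13 to 5.08 in circRNA and 5.44 to 7.25 in PKR KO. The ratio of Tlr2 to its other partner Tlr6 was 2.64 to 2.80 in wild type, 9.00 to 10.0 in 5xFAD EGFP, 8.33 to 9.42 in circRNA and 10.1 to 17.9 in PKR KO. Wild type replicate 3 lay with the other wild type libraries in both ratios, although its receptor levels were lower. Tlr2 made up 10.1 to 10.8% of the summed FPKM of the 10 members in wild type and 29.9 to 37.2% in PKR KO, with 26.1 to 27.0% in 5xFAD EGFP and 24.3 to 26.1% in circRNA.

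The balance between surface and endosomal receptors moved with Tlr2. Surface receptors made up 27.1 to 29.2% of the member sum in wild type, 40.1 to 41.5% in 5xFAD EGFP, 38.5 to 40.3% in circRNA and 44.2 to 48.6% in PKR KO. Endosomal RNA receptors made up 49.3 to 51.9% in wild type and 37.4 to 42.4% in PKR KO, and Tlr9 20.9 to 22.9% and 13.1 to 14.2%. In summed FPKM the endosomal RNA receptors overlapped, at 50.0 to 83.8 in wild type and 62.3 to 77.5 in PKR KO. The overlap came through wild type replicate 3 (50.0), since replicates 1 and 2 (83.8 and 78.6) lay above every PKR KO library. The sum of all members was larger in PKR KO, at 163 to 202 against 100 to 162 in wild type.

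Among the endosomal receptors, Tlr7 over Tlr3 was 3.14 to 4.09 in wild type, 4.73 to 4.74 in 5xFAD EGFP, 4.26 to 5.13 in circRNA and 5.92 to 7.72 in PKR KO. The 2 receptors of single-stranded RNA, which lie side by side on the X chromosome, also differed between groups: Tlr7 over Tlr8 was 27.3 to 35.5 in wild type and 63.3 to 146 in the 5xFAD libraries. Tlr13 over Tlr9 was below 1 in every wild type library (0.814 to 0.916) and above 1 in every 5xFAD EGFP and circRNA library (1.04 to 1.25), while PKR KO spanned 0.953 to 1.22.

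**Figure D3:**
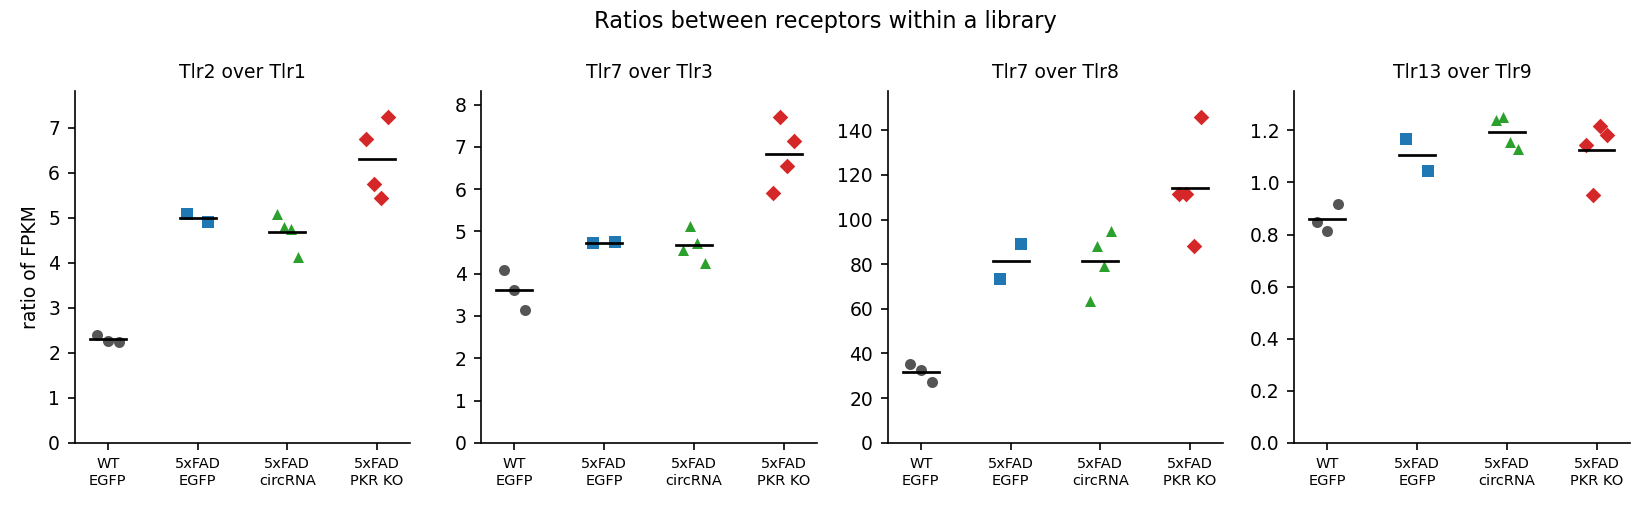
Ratios of FPKM between receptors within each library by group, for Tlr2 over Tlr1, Tlr7 over Tlr3, Tlr7 over Tlr8 and Tlr13 over Tlr9; points are libraries, bars are group means and each axis starts at 0. The 3 wild type libraries lie below every 5xFAD library in all 4 panels, and the PKR KO libraries are the highest group for Tlr2 over Tlr1 and for Tlr7 over Tlr3.

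For each member called in at least 1 comparison, the 2 tested genes with the most similar pattern were taken by the root mean square (RMS) difference of centred log2 values over the 13 libraries. Tlr2 was closest to Bcl2a1d (RMS 0.090) and Bcl2a1b (RMS 0.10), copies of a Bcl2-family survival gene whose reads are hard to split. Bcl2a1b stood at 10.3 FPKM in wild type and 42.7 FPKM in PKR KO on average. Tlr1 was closest to Igsf6 (RMS 0.066) and Anxa3 (RMS 0.075), and Tlr5 to Efnb1 (RMS 0.053), a membrane-bound ephrin, and Prkab1 (RMS 0.075), a subunit of AMP-activated kinase. Tlr3 was closest to Tgfbr1 (RMS 0.078), a TGF-beta receptor with 129 FPKM in wild type and 85.2 FPKM in PKR KO, and to Rnf139 (RMS 0.092).

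The rest of the pathway was read from 9 lists of 69 genes by role, of which 58 were tested. Against wild type, 14 of these 58 rose and 1 fell in 5xFAD EGFP (7.65% of all genes rose and 6.35% fell), 23 rose and 1 fell in circRNA (17.8% and 8.05%), and 27 rose and 5 fell in PKR KO (17.5% and 19.4%). Without wild type replicate 3 the counts were 13 and 6 (8.96% and 9.51% of all genes), 19 and 4 (15.0% and 8.81%), and 22 and 9 (15.3% and 19.7%). With equal FPKM sums they were 14 and 13, 16 and 19, and 20 and 17. That scaling lowers all genes together: 6.55% of all genes then rose and 27.7% fell in 5xFAD EGFP, 9.20% and 43.3% in circRNA, and 10.9% and 50.1% in PKR KO. Median log2 differences of the 58 genes were 0.06, 0.17 and 0.26, and -0.09, -0.09 and 0.04 with equal FPKM sums, where those of all genes were -0.17, -0.20 and -0.24. Median-ratio scaling gave 15 and 1, 23 and 1, and 34 and 2, with medians of 0.12, 0.15 and 0.37.

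Of the co-receptors of the surface receptors, 3 of 5 tested were higher and 1 lower in each comparison with wild type. Cd14, which hands lipopolysaccharide to Tlr4 and lipoproteins to Tlr2, had means of 53.1 ± 13.8 FPKM in wild type, 107 ± 7.20 in 5xFAD EGFP, 124 ± 29.6 in circRNA and 145 ± 20.4 in PKR KO. Its rises were 1.04, 1.21 and 1.46 (limma adjusted p = 0.0149, 0.00100 and 0.000202), and the one in 5xFAD EGFP was lost when the 2 groups were fitted alone (limma adjusted p = 0.0841). Ly86 and Cd180, which form a receptor complex related to Tlr4, were the others that rose. Lbp, which binds lipopolysaccharide for Cd14, fell from 3.84 FPKM in wild type to 1.13, 1.74 and 0.606 FPKM. Ly96, the subunit that Tlr4 needs to bind lipopolysaccharide, had a mean of 3.18 FPKM in wild type and 2.36 to 2.52 FPKM in the 5xFAD groups and did not pass (limma adjusted p = 0.314, 0.179 and 0.0698). Its PKR KO difference was called when wild type replicate 3 was left out (-0.43, limma adjusted p = 0.0230), when PKR KO replicate 4 was (-0.39, limma adjusted p = 0.0375), and with all libraries under equal FPKM sums, arrayWeights or the marker covariate (limma adjusted p = 0.00666, 0.0279 and 0.0456). Its circRNA difference was called with equal FPKM sums (limma adjusted p = 0.0112). With wild type replicate 3 left out, 2, 3 and 3 of this list rose and 1, 1 and 2 fell.

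Among genes that serve the endosomal receptors, proteases and a nuclease had the largest rises. Ctsb and Ctsl, cathepsins that can cleave the endosomal receptors into their active form, stood at 137 and 26.7 FPKM in wild type, 397 and 85.0 in 5xFAD EGFP, 478 and 96.6 in circRNA, and 491 and 113 in PKR KO. Ctsl rose by 1.67, 1.84 and 2.08 (limma adjusted p = 0.000269, 1.32e-05 and 3.41e-06). Pld3, an endosomal exonuclease that degrades ligands of Tlr9 and Tlr7, rose from 26.2 FPKM to 76.3, 84.5 and 92.2 FPKM (log2 differences 1.51, 1.65 and 1.78). Of the 5 nucleases, 1, 3 and 3 rose in the 3 comparisons, and none fell. Without wild type replicate 3, the rises were 1, 1 and 2 and the falls 1, 1 and 1.

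Slc15a3, an endolysosomal transporter of peptides and muramyl dipeptide, rose from 14.0 FPKM to 34.1, 37.8 and 38.8 FPKM, and with it 2, 4 and 5 of the 9 trafficking and folding factors rose. With equal FPKM sums, which lower all genes together, 2, 2 and 3 of this list rose and 0, 1 and 1 fell. With median-ratio scaling the rises were 2, 4 and 6 and the falls 0, 0 and 0. Hsp90b1, the chaperone that folds most Toll-like receptors, had means of 71.0 FPKM in wild type and 129 FPKM in PKR KO, where it rose by 0.86 (limma adjusted p = 0.00113). Unc93b1, which carries the endosomal receptors out of the endoplasmic reticulum, had means of 145 ± 35.6 FPKM in wild type and 118 ± 5.34, 131 ± 19.8 and 118 ± 6.12 FPKM in the 5xFAD groups. Its differences of -0.26, -0.12 and -0.27 did not pass (limma adjusted p = 0.440, 0.641 and 0.219). With wild type replicate 3 left out, Unc93b1 was called lower in 5xFAD EGFP (-0.48, limma adjusted p = 0.0426) and PKR KO (-0.49, limma adjusted p = 0.0128). With all libraries kept, it was called lower with arrayWeights in all 3 comparisons (limma adjusted p = 0.0440, 0.0343 and 0.0180), with equal FPKM sums in circRNA and PKR KO (limma adjusted p = 0.0379 and 0.0132) and with the marker covariate in PKR KO (limma adjusted p = 0.0162).

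The adaptors carry the signal from the receptors to the kinases. Myd88 had a mean of 9.76 ± 2.05 FPKM in wild type and 7.59, 8.70 and 9.05 FPKM in the 5xFAD groups and did not pass (limma adjusted p = 0.287, 0.507 and 0.681). In 5xFAD EGFP it was called lower when wild type replicate 3 was left out (-0.47, limma adjusted p = 0.0470), with equal FPKM sums (limma adjusted p = 0.0308) and with arrayWeights (limma adjusted p = 0.0349). The circRNA difference was called lower in the last 2 of these settings (-0.41 and -0.36, limma adjusted p = 0.0162 and 0.0306). Of 5 adaptors, none passed in 5xFAD EGFP or circRNA. In PKR KO, Ticam1, the adaptor of Tlr3, rose by 0.34 (limma adjusted p = 0.0256) and Tirap, which brings Myd88 to Tlr2 and Tlr4, fell by 0.36 (limma adjusted p = 0.00114). The Ticam1 call was lost without wild type replicate 3 (limma adjusted p = 0.0862) and without PKR KO replicate 3 (limma adjusted p = 0.0594). It was also lost with equal FPKM sums (0.13, limma adjusted p = 0.253), with the marker covariate (0.17, limma adjusted p = 0.199) and with the 2 groups alone (limma adjusted p = 0.0582). Of 15 kinases and ubiquitin ligases, 1, 2 and 4 rose and 0, 0 and 2 fell. Without wild type replicate 3, the rises were 1, 2 and 3 and the falls 2, 2 and 3. With equal FPKM sums, which lower all genes together, they were 1, 1 and 2 and 6, 10 and 9, and with median-ratio scaling 2, 2 and 6 and 0, 0 and 0. Peli2, an E3 ligase of the Irak complex, had means of 5.51 FPKM in wild type and 8.12, 8.67 and 8.81 FPKM in the 5xFAD groups, with rises of 0.49, 0.57 and 0.59.

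Downstream, 3 of the 8 listed cytokine genes passed the filter on low values, and these 3 rose in each comparison with wild type. Il6, Il12b, Il12a, Ifnb1 and Ccl5 had means of 0.0159 to 0.892 FPKM over all libraries and were not tested. Il1b stood at 3.91, 12.2, 10.7 and 20.4 FPKM on average in wild type, 5xFAD EGFP, circRNA and PKR KO, and Tnf at 4.98, 13.5, 11.4 and 21.4 FPKM. Both rose with Cxcl10, an interferon-induced chemokine, whose means were 0.990, 2.99, 3.28 and 4.42 FPKM. Cxcl10 passed the filter of 1 FPKM through the 5xFAD groups, so the count of 3 is in part set by the filter. Among transcription factors, Irf8, which maintains macrophages, rose from 30.1 FPKM to 44.2, 50.4 and 55.7 FPKM, and Irf7 rose in circRNA and PKR KO, its circRNA call being lost with arrayWeights (limma adjusted p = 0.0598). Of the 6 inhibitors tested, 1, 3 and 3 rose and 0, 0 and 1 fell, the last being Tollip, which restrains Irak1, and without wild type replicate 3 the rises were 1, 1 and 2 and the falls 0, 0 and 1. With median-ratio scaling, 4 inhibitors rose and 0 fell in PKR KO. With equal FPKM sums, which lower all genes together, 1, 1 and 2 inhibitors rose and 2, 2 and 2 fell. Tnfaip3, a ubiquitin-editing brake on NF-kappaB, had means of 12.9, 28.5, 23.7 and 57.9 FPKM, and Nfkbia, which holds NF-kappaB in the cytoplasm, 57.6, 83.6, 74.8 and 158 FPKM. In 5xFAD EGFP, leaving out replicate 1 or 2 leaves 1 library, whose spread is then taken from the other groups. Irf8, Lbp, Tnf and Cd14 were not called in either of these fits (limma adjusted p = 0.0529 to 0.180), although their differences were of similar size: 1.52 and 1.10 for Tnf, against 1.31 with both libraries, and 0.97 and 1.11 for Cd14, against 1.04. Il1b and Sdcbp, a scaffold protein of the trafficking list, were not called without replicate 1. With the 2 groups alone, Irf8, Sdcbp, Tnf, Tnfaip3 and Peli2 were not called in 5xFAD EGFP either (limma adjusted p = 0.0506 to 0.173). Lbp also lost its call without wild type replicate 1 (limma adjusted p = 0.0581) and with a pseudocount of 0.1 (limma adjusted p = 0.0520).

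Among the 5xFAD groups, no pathway gene passed between circRNA and EGFP or between PKR KO and EGFP. These comparisons share the 2 EGFP libraries. In PKR KO against EGFP, 2 pathway genes were higher when wild type replicate 3 was left out (0.462% of all genes). With median-ratio scaling 1 was higher (0.407% of all genes), and pathway counts with arrayWeights or the 2 groups alone are not given here. Between circRNA and PKR KO, 2 of 58 were higher in circRNA and 4 lower, where 4.28% and 1.91% of all genes were. Tnfaip3 and Nfkbia were lower in circRNA by -1.25 and -1.06 (limma adjusted p = 0.00284 and 0.00603), Irak2, a kinase of the Myd88 complex, by -0.39 (limma adjusted p = 0.0118) and Il1b by -0.87 (limma adjusted p = 0.0329). The genes higher in circRNA were Tirap, by 0.25 (limma adjusted p = 0.0330), and Tollip. The Il1b call was lost in 6 of the 13 fits that left out a library (circRNA replicate 1, 2 or 4 or PKR KO replicate 1, 2 or 4) and the Tirap call in 8 (circRNA replicate 1 or 3, either EGFP library or any PKR KO library). Both calls were also lost without the filter on low values (limma adjusted p = 0.0630 and 0.0538), and that of Tirap with median-ratio scaling (limma adjusted p = 0.0683), with which 0 pathway genes, Tollip included, were called higher in circRNA and 5 lower.

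**Figure D4:**
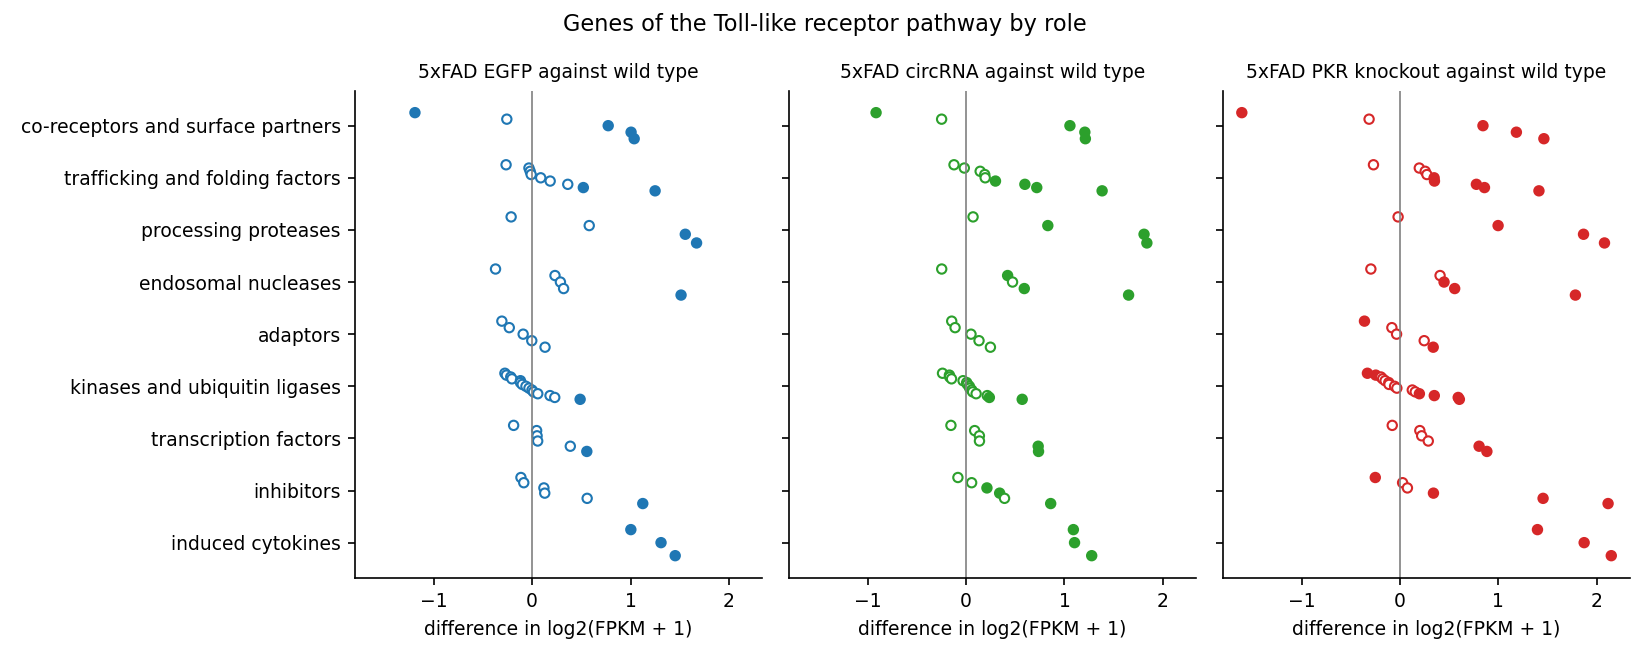
Difference in log2(FPKM + 1) from wild type EGFP of the 58 tested pathway genes, 1 row per list and 1 panel per 5xFAD group; filled points have a limma adjusted p under 0.05. Co-receptors, proteases and cytokines hold most of the filled points beyond 1, and adaptors and kinases lie near 0, between -0.36 (Tirap in PKR KO) and 0.60 (Irak2 in PKR KO).

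Markers of other cell types varied beside these results, and their part in them was not tested. Border macrophage markers (6 genes) summed to 35.6 to 56.5 FPKM in wild type and 13.5 to 24.6 FPKM in the 5xFAD libraries, without overlap, and Tlr5 and Tlr8 were lower in the same libraries. Endothelial markers (5 genes) summed to 58.2 to 129 FPKM in wild type, and to 24.7 to 37.7, 36.5 to 72.3 and 36.7 to 56.9 FPKM in 5xFAD EGFP, circRNA and PKR KO. Mural markers summed to 22.5 to 53.0 FPKM in wild type and 11.4 to 23.0 FPKM in the 5xFAD libraries. Of these, Cspg4 went the other way, at 1.27 to 3.44 FPKM in wild type and 2.98 to 5.40 FPKM in the 5xFAD libraries. Oligodendrocyte markers (6 genes) summed to 352 to 1580 FPKM in wild type, 636 to 680 FPKM in 5xFAD EGFP, 306 to 786 FPKM in circRNA and 225 to 375 FPKM in PKR KO. The PKR KO libraries thus lay below both 5xFAD EGFP libraries in these markers, in the comparison in which Tlr2 was 0.57 higher and Tlr3 differed by -0.35. Neuron markers (6 genes) likewise summed to 4.59 to 7.82 FPKM in PKR KO and 10.5 to 12.6 FPKM in 5xFAD EGFP, with 4.69 to 15.1 FPKM in wild type and 3.59 to 10.6 FPKM in circRNA. Astrocyte markers (6 genes) overlapped between all groups in their sum, at 93.9 to 323 FPKM in wild type and 134 to 252 FPKM in the 5xFAD libraries. Of these, Gfap, which reactive astrocytes raise, stood at 11.6 to 29.9 FPKM in wild type and 49.6 to 116 FPKM in the 5xFAD libraries, without overlap.

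Markers of other blood cells that carry Toll-like receptors were low. Monocyte markers (5 genes) summed to 0.66 to 1.98 FPKM and B and plasmacytoid dendritic cell markers (5 genes) to 1.52 to 4.00 FPKM over all libraries. Neutrophil markers summed to 1.35 to 16.9 FPKM, and the highest value was in PKR KO replicate 4, which also had the highest Tlr2. Ly6g, Ms4a1 and Pax5 were at 0 in both 5xFAD EGFP libraries. The other PKR KO libraries held 50.1 to 70.1 FPKM of Tlr2.

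**Figure D5:**
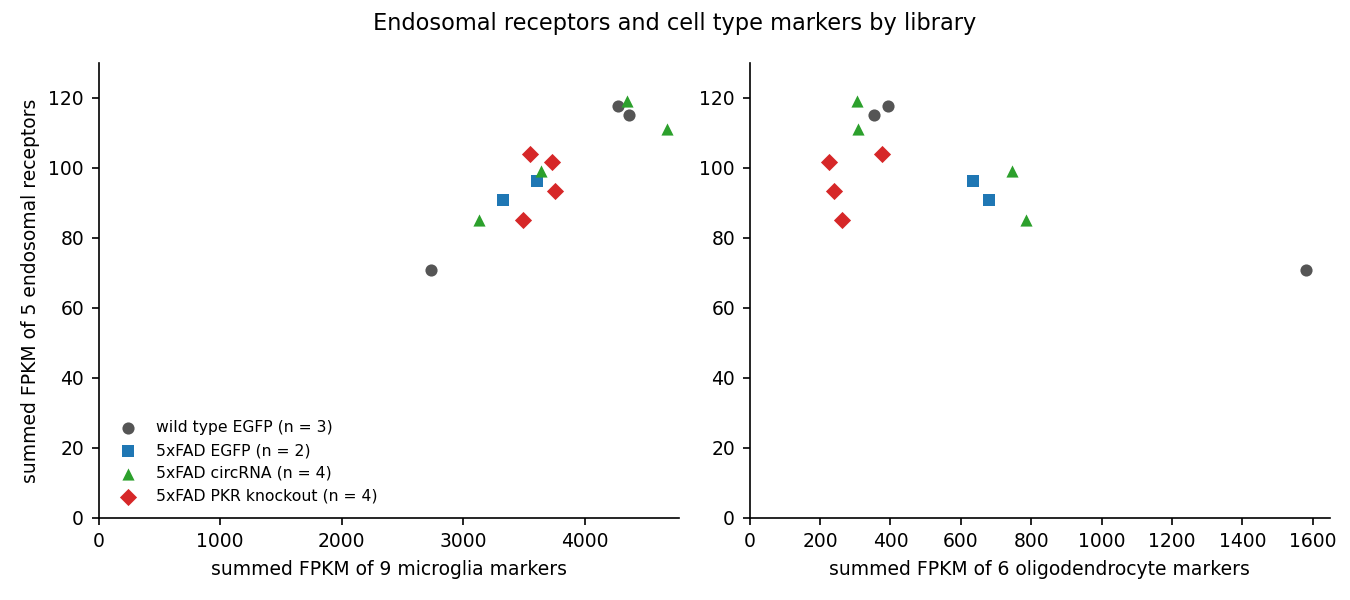
Summed FPKM of the 5 endosomal receptors in each library against the summed FPKM of 9 microglia markers (left) and of 6 oligodendrocyte markers (right), by group. Wild type replicate 3 is the lowest library on the receptor axis, with the lowest microglial sum (2735 FPKM) and the highest oligodendrocyte sum (1580 FPKM).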

How the data were processed

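RNA of microglia was sequenced after ribosomal RNA depletion with a strand-marking kit, per the labels' protocols, in 13 libraries. The authors deposited 1 table of FPKM values for 19737 genes. The submitters' processing notes name Bowtie2 2.3.5, HISAT2 2.1.0, featureCounts 1.5.1 and the build mm10, without their settings. Because FPKM values are not counts, a linear model of log2(FPKM + 1) was fitted in limma 3.58.1 (R 4.3.3), with 4 group means over all 13 libraries (9 residual degrees of freedom), a trended variance, two-sided tests and Benjamini-Hochberg adjustment over the 10817 genes whose mean reached 1 FPKM, in each of 6 comparisons. The script was tested on simulated data. The members and gene lists were chosen with earlier results of these data known. Named pathway genes were the 2 largest called changes per list and comparison, plus Unc93b1, Myd88, Ticam1, Cd14 and Ly96; Ly86 and Tollip were named after their values were seen, to complete small counts.

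Fragments per library were recovered from the spacing of FPKM values and GENCODE M21 exon lengths (available for 98.3% of genes), and 88.7 to 91.5% of low values were then whole numbers, within 0.02 fragments, where chance gives 4%. Counting errors given cover counting only. The fragments were used for precision and not for a count test, since lengths came from an annotation that may differ from the authors'. Alternatives were a pseudocount of 0.1, no filter, equal FPKM sums, median-ratio scaling, arrayWeights, a covariate of 28 markers of other cells, the 2 groups alone, a replicate block and each library left out. One marker of the B and plasmacytoid dendritic cell list is not reported here and was left out of its sum.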

Additional observations from a re-analysis of the deposited data

How the results depend on the processing

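Over 8 alternatives and 13 fits that left out a library, 131 gene results gave 2751 values, of which 2607 kept their side of the threshold, 86 lost a call, 57 gained one and 1 reversed: Traf3 in circRNA against wild type was -0.00724 with equal FPKM sums (limma adjusted p = 0.936), a scaling that moved the median of all genes in that comparison from 0.02 to -0.20. Among the 2607, 46 values under the 8 alternatives and 28 without 1 library had the other sign, none of them called, at sizes up to 0.22. Tlr2 against wild type was called in each of these fits. Without the filter, Tlr8 is tested and adds a lower call against wild type.

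In 5xFAD EGFP against wild type, 2 members were called. With a pseudocount of 0.1, with median-ratio scaling and with the 2 groups alone it was 1 (13.8%, 16.1% and 4.71% of all genes). It was 4 with arrayWeights (20.7%), 5 with the marker covariate (23.2%), and 1 to 4 without 1 library. In PKR KO against EGFP, 0 were called (0.0832% of all genes), but 2 with arrayWeights (7.6%) and 1 with the 2 groups alone (5.33%). In circRNA against wild type, 3 were called, and 5 with equal FPKM sums (52.5% of all genes) and with the covariate (30.1%). In PKR KO against wild type, 4 were called, 7 with equal FPKM sums, arrayWeights or the covariate (61.0%, 37.1% and 32.7% of all genes), and 4 to 7 without 1 library. In several of these fits the members' share is thus further above that of all genes than with the reported fit, but not in all of them. With equal FPKM sums in 5xFAD EGFP, Tlr3 was the member added, while the share of all genes went from 14.0% to 34.3%. In circRNA against PKR KO, 1 was called (6.19% of all genes), and 2 with equal FPKM sums (6.31%) and with arrayWeights (29.2%). Without 1 library, 0 to 2 were called (1.36% to 12.4% of all genes). In circRNA against EGFP 0 members were called in each fit.

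Over all genes, calls in 5xFAD EGFP against wild type went from 1514 to 3709 with equal FPKM sums, 2512 with the covariate, 509 with the 2 groups alone and 566 to 1998 without 1 library. Against wild type, circRNA went from 2796 to 5676 and PKR KO from 3997 to 6595 with equal FPKM sums, and circRNA to 1725 with the 2 groups alone. PKR KO against EGFP went from 9 to 822 with arrayWeights, 577 with the 2 groups alone, 46 with median-ratio scaling, 22 with the covariate or the replicate block, 0 with a pseudocount of 0.1, no filter or equal FPKM sums, and 0 to 58 without 1 library. For circRNA against PKR KO, 670 became 3161 with arrayWeights, 1269 with the covariate, 449 without the filter, and 147 (without PKR KO replicate 1) to 1339 (without wild type replicate 3) without 1 library. In circRNA against EGFP, 0 became 4 with the covariate. Higher against lower calls were 827 and 687, 1925 and 871, and 1898 and 2099 against wild type, and 708 and 3001, 995 and 4681, and 1174 and 5421 with equal FPKM sums. In circRNA against PKR KO they were 463 and 207, 339 and 344 with equal FPKM sums, and 148 and 697 with median-ratio scaling, which gave 2757 and 1447 in PKR KO against wild type. Depth limits Tlr8 most, with as few as 57 fragments in a library.

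Replicate numbers were not taken to pair the samples: same-numbered libraries correlated at -0.422 to 0.69 in their deviations from the group means, and wild type replicate 1 correlated best with circRNA replicate 2. The mean correlation of same-numbered libraries was nevertheless above that of the others in each pair of groups. It ran from 0.0223 against -0.0204 (wild type and circRNA) to 0.328 against -0.109 (5xFAD EGFP and PKR KO), so a pairing was not excluded. With the replicate block the member counts were 2, 0, 0, 3, 4 and 1, as without it, and genes called in circRNA against PKR KO went from 670 to 448. Of the named genes, Irf8 (limma adjusted p = 0.0632) and Sdcbp (0.0511) in 5xFAD EGFP and Traf3 (0.0860) in circRNA were then not called against wild type, and Ly96 in PKR KO was (0.0230).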
